A study of Mus musculus with 6 samples.

Results

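The collagen genes were followed in RNA from whole Hepa1-6 tumors of mice treated with sorafenib (Sora), an inhibitor of several kinases, and of control mice. Every gene whose symbol is Col, a number, a and a number was taken, which gave 44 of the 26167 genes in the deposited tables. The 3 control tumors are numbered 1, 3, and 4 in the labels and the 3 Sora-treated tumors 2, 3, and 4, with one library per tumor. Hepa1-6 is a mouse hepatoma cell line, written Hep1-6 in the labels. By the methods of the study female C57BL/6J mice of 6 to 8 weeks carried the tumors under the skin. Sora was injected ip at 10 mg/kg on day 9 and then on days 11, 13, and 15 after the cells. What the control mice received is not given in the sources used here. The tumors are transplants under the skin, so host skin, fat, and muscle lay beside them. The hepatoma genes Afp and Alb were at 323 to 483 FPKM and at 974 to 1680 FPKM over the 6 tumors. FPKM relates the reads of a gene to its length and to the total of the library, and CPM relates them to the total alone, here with edgeR's TMM scaling. Total counts lay between 31073830 and 36205814 reads per tumor. The deposited counts used here cover 5 tumors, and those of Sora tumor 4 were computed back from its FPKM, so its values are given apart where a result rests on them. Nothing in the labels says more of the replicates than that they are separate tumors, and p-values measure the spread between these tumors.

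Collagens are proteins in which 3 chains wind into a triple helix, and each chain has a gene of its own. Fibrillar collagens, led by types I and III, build the cable-like fibrils of connective tissue and are made mainly by fibroblasts and related stromal cells. The FACIT collagens bind to the surface of fibrils, type VI forms beaded filaments around cells, and type IV forms the sheet of basement membranes under epithelium and around vessels. Collagen is hydroxylated and folded in the endoplasmic reticulum, trimmed outside the cell, and crosslinked by lysyl oxidases, and cells sense it through integrins and discoidin domain receptors. In liver cancer the fibrillar collagens are the main component of the scar around and within the tumor.

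Most fibril-forming chains had lower mean levels in Sora-treated than in control tumors, but none of these differences passed edgeR's test. Col1a1, Col1a2, Col3a1, Col5a1, Col5a2, and Col6a1 to Col6a3, chains of types I, III, V, and VI, were lower by 12.1% to 27.6%, and Col5a3 by 7.04%. None of the 9 passed edgeR's test at an adjusted p of 0.05, and in 8 of them the groups did not overlap in CPM, as in 11.6% of all genes in this direction. Their log2 fold changes were -0.47 to -0.11 with all tumors and -0.34 to -0.07 without Sora tumor 4. The type IV chains Col4a1 and Col4a2 overlapped. Col8a1, a short-chain collagen known from vessel walls and from remodeling tissue, rose by 51.6%, and Col9a1, a cartilage FACIT chain, fell by 66.1% from a low level. These 2 passed an adjusted p of 0.05 by edgeR's quasi-likelihood test, with Benjamini-Hochberg adjustment over 16513 genes. A gene was tested where 3 or more tumors had 10 or more counts.

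Of the 44 collagen genes, 35 could be tested, and 32 of these had at least 10 counts in every tumor. The exceptions Col13a1, Col4a5, and Col4a6 had counts down to 6, 9, and 9. In edgeR's test 1 of the 35 was called higher, against 1.94% of all genes, and 1 was called lower, against 1.34% of all genes, so the number of calls was near the background in both directions. The log2 fold change was below 0 in 24 and above 0 in 11, with a median of -0.15, and the median over all genes tested was 0.00. The groups did not overlap in 12 collagen genes that were lower and in 2 that were higher, against 11.6% and 10.6% of all genes. At an unadjusted p under 0.05 in edgeR, 4 were higher and 12 lower, against 8.53% and 8.69% of all genes, and the counts of other lists given below (calls by edgeR or DESeq2, unadjusted p) have the backgrounds over all genes given in this and the next paragraph. Without Sora tumor 4 the median of the collagen genes was -0.10, and edgeR called none in either direction, where 0.0245% of all genes were called higher and 0.00613% lower (5 higher and 9 lower at an unadjusted p under 0.05, where 6.12% and 5.8% of all genes were).

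DESeq2, the tool the study used, called more of them. It called 2 higher, Col8a1 and Col7a1, where the background was 4.0%, and 8 lower, where the background was 3.72%. The 8 were Col1a1, Col1a2, Col3a1, Col5a1, Col5a2, Col6a1, Col6a2, and Col9a1. On the 5 deposited columns of counts, without Sora tumor 4, DESeq2 called 1 higher (Col8a1) and 4 lower (Col1a1, Col1a2, Col3a1, and Col9a1), against 1.75% and 1.42% of all genes. DESeq2 was run without the filter on low counts. edgeR without that filter called the same 2 higher and the same 8 lower as DESeq2 on 6 tumors, against 2.26% and 2.28% of all genes. The edgeR fit with the filter on 6 tumors called none of types I, III, V, and VI. The log2 fold changes of Col1a1, Col1a2, Col3a1, Col5a1, Col5a2, Col6a1, and Col6a2 were below 0 in each of these fits and under 2-fold in size.

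**Figure D1:**
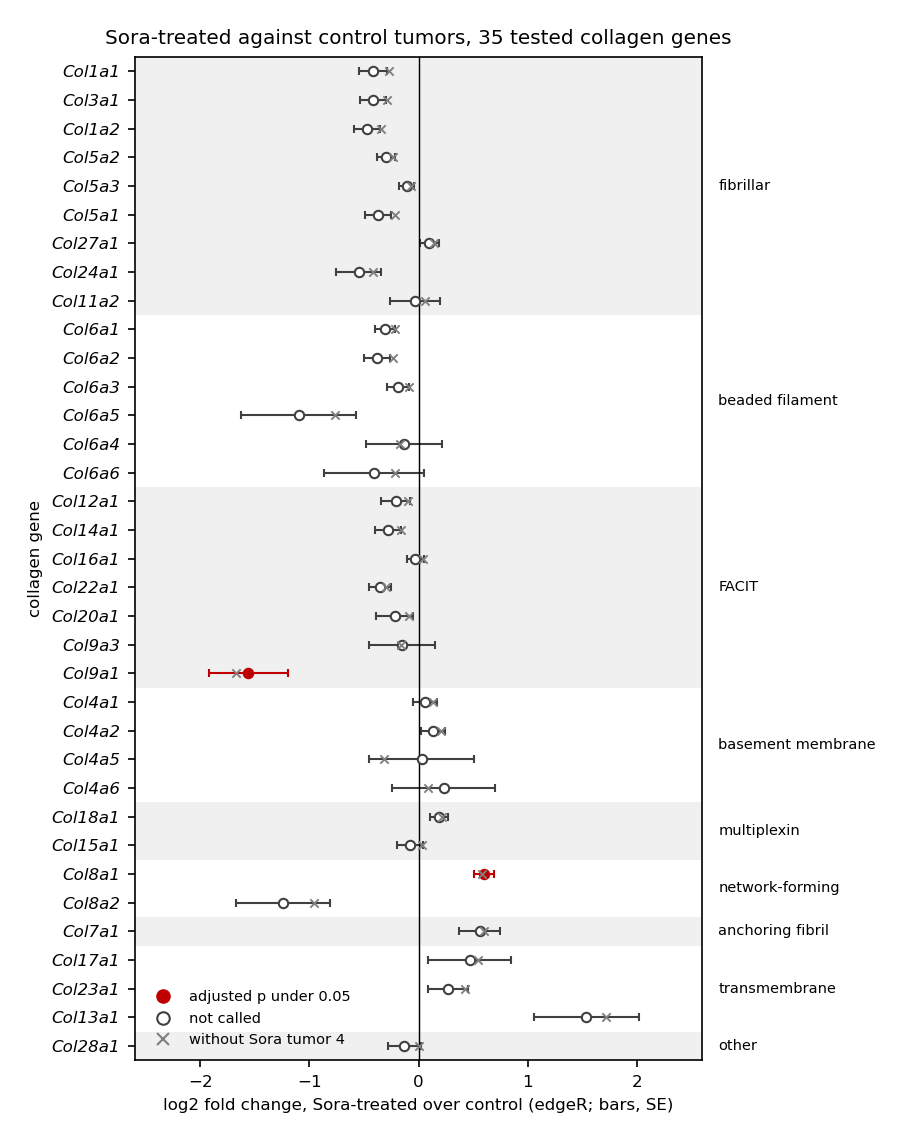
Log2 fold change (x axis, Sora-treated over control, edgeR, bars are standard errors) of the 35 tested collagen genes (y axis, grouped by class), with 3 tumors per group. Filled red points had an adjusted p under 0.05 and gray crosses give the value without Sora tumor 4. Col8a1 at 0.60 and Col9a1 at -1.56 are the filled points, and 8 of the 9 fibrillar chains lie left of 0.

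The collagen RNA of these tumors was dominated by a few chains. Summed over all collagen genes, control tumors 1, 3, and 4 had 1829, 1678, and 1792 FPKM. The sums of Sora tumors 2, 3, and 4 were 1530, 1605, and 1178 FPKM. All Sora tumors lay below all control tumors, and Sora tumor 4 lay far below the rest. Collagen genes took 1.09%, 0.997%, and 1.08% of all reads in the control tumors and 0.918%, 0.966%, and 0.709% in the Sora tumors. Over 1 FPKM were 23 to 25 collagen genes in each tumor, and over 10 FPKM were 15 to 17. In RNA from whole tumors, fewer cells of a type and less RNA per cell cannot be told apart.

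**Figure D2:**
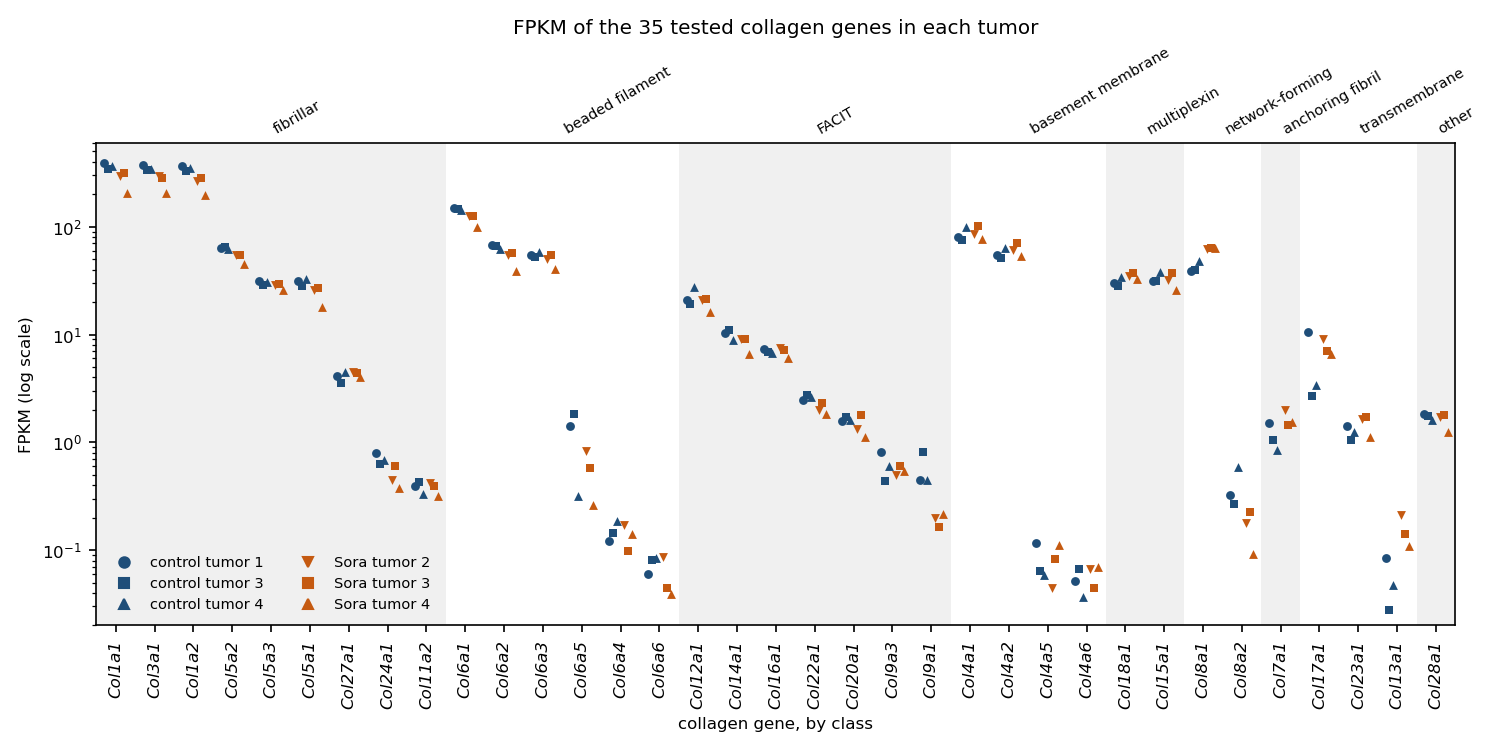
FPKM on a log axis (y) of the 35 tested collagen genes (x, by class) in each of the 3 control and 3 Sora tumors, 1 point per tumor. Levels ran from over 300 FPKM for Col1a1, Col3a1, and Col1a2 in the control tumors to under 0.1 FPKM for Col4a6 and Col6a6, and in most abundant fibrillar and type VI chains the lowest point is Sora tumor 4.

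Type I collagen, a trimer of 2 chains from Col1a1 and 1 from Col1a2, and type III, a trimer of the Col3a1 chain, were the most abundant. In the order of the tumor numbers, Col1a1 was at 393, 345, and 365 FPKM in the control and at 295, 318, and 207 FPKM in the Sora tumors, and later genes follow this order. Every Sora tumor was lower than every control tumor, with a log2 fold change of -0.42 (SE 0.13, adjusted p = 0.12, edgeR). Col1a2 went with it, at 362, 328, and 347 FPKM against 266, 284, and 196 FPKM. Its log2 fold change was -0.47 (SE 0.12, adjusted p = 0.056, edgeR), and it passed with an offset for gene length (adjusted p = 0.044, edgeR). Col3a1 was at 377, 336, and 345 FPKM in control and at 294, 284, and 205 FPKM in Sora tumors, a log2 fold change of -0.42 (SE 0.12, adjusted p = 0.082, edgeR). In DESeq2 the adjusted p were 0.0065, 0.00046, and 0.0023 for Col1a1, Col1a2, and Col3a1. Sora tumor 4 carried part of the difference, and without it the log2 fold changes were -0.27, -0.34, and -0.29 (adjusted p = 0.29, 0.17, and 0.23, edgeR). Sora tumors 2 and 3 were still lower than each control tumor in all 3 genes. Without Sora tumor 3 instead, Col1a1 and Col1a2 passed edgeR's test (adjusted p = 0.044 and 0.023). That fit called more genes in general, 574 higher and 571 lower of 16295, against 321 and 222 of 16513 with all tumors.

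The upstream sequences of Col1a2 and Col3a1, which were lower together, and of Col8a1, which rose, are shown for comparison. Each holds the 150 bases before the start of the gene in RefSeq on GRCm38.p6, read 5′ to 3′ on the strand of the gene, with motif matches in capitals. RefSeq promoter windows were matched for 35 of the 44 genes, Col1a1 not among them.
Col1a2, chr6:4505468-4505617, plus strand, CCAAT in capitals: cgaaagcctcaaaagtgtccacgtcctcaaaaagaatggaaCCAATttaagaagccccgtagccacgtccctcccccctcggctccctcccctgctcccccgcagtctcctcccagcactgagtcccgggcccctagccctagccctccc
Col3a1, chr1:45311388-45311537, plus strand, TATAAA in capitals: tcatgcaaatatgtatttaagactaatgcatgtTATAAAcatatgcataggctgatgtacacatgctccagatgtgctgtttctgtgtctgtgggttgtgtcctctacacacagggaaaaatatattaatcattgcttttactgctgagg
Col8a1, chr16:57754738-57754887, minus strand, CCGCCC in capitals: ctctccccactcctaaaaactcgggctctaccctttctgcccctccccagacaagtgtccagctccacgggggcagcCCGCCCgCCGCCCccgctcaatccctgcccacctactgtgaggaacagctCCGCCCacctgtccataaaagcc
Motifs were searched on both strands, with the base before the start counted as -1, and matches of different motifs may share end bases. The motif CCAAT lay at -109 in Col1a2, and it was held by 24.5% of the 32851 windows of this length in the RefSeq table and by 8 of the 38 windows of collagen genes (21.1%). The motif TATAAA lay at -117 in Col3a1, and it was held by 7.57% of all windows and by 4 of those of collagen genes (10.5%). The third motif was GGGCGG, whose matches in Col8a1 lay at -73, -66, and -23 on the opposite strand. It was held by 28.6% of all windows and by 19 of those of collagen genes (50%). A match is a description of letters and was not tied to binding of any factor.

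Type V collagen is built into type I fibrils and sets their diameter. Col5a1 was at 31.2, 28.3, and 32.7 FPKM in control tumors and at 25.8, 27.1, and 18 FPKM in Sora tumors. Col5a2 was at 64.0, 65.0, and 61.8 FPKM in control and 54.5, 54.4, and 44.9 FPKM in Sora tumors. Neither gene overlapped between the groups. Their log2 fold changes were -0.37 (SE 0.12, adjusted p = 0.14, edgeR) and -0.30 (SE 0.08, adjusted p = 0.078, edgeR), and -0.22 and -0.23 without Sora tumor 4. DESeq2 called both on 6 tumors (adjusted p = 0.024 and 0.0096) and neither on the 5 deposited columns (0.17 and 0.097). The third chain, Col5a3, was nearly level, at 28.9 to 31.5 FPKM in control and 26 to 29.4 FPKM in Sora tumors, with a log2 fold change of -0.11 (SE 0.07). Its TMM-scaled CPM did not overlap between the groups, whereas its FPKM did. Among the minor fibrillar chains, Col24a1 was at 0.63 to 0.789 FPKM in control and 0.379 to 0.605 FPKM in Sora tumors (log2 fold change -0.55, SE 0.21, adjusted p = 0.21, edgeR), without overlap. Col27a1 and Col11a2 overlapped, with log2 fold changes of 0.10 and -0.03. Over the 9 tested fibrillar chains the median log2 fold change was -0.37, and -0.23 without Sora tumor 4. Of these, 8 had their lowest value in Sora tumor 4, as had 19.3% of all genes tested, and 7 were lower without overlap, as were 11.6% of all genes.

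**Figure D3:**
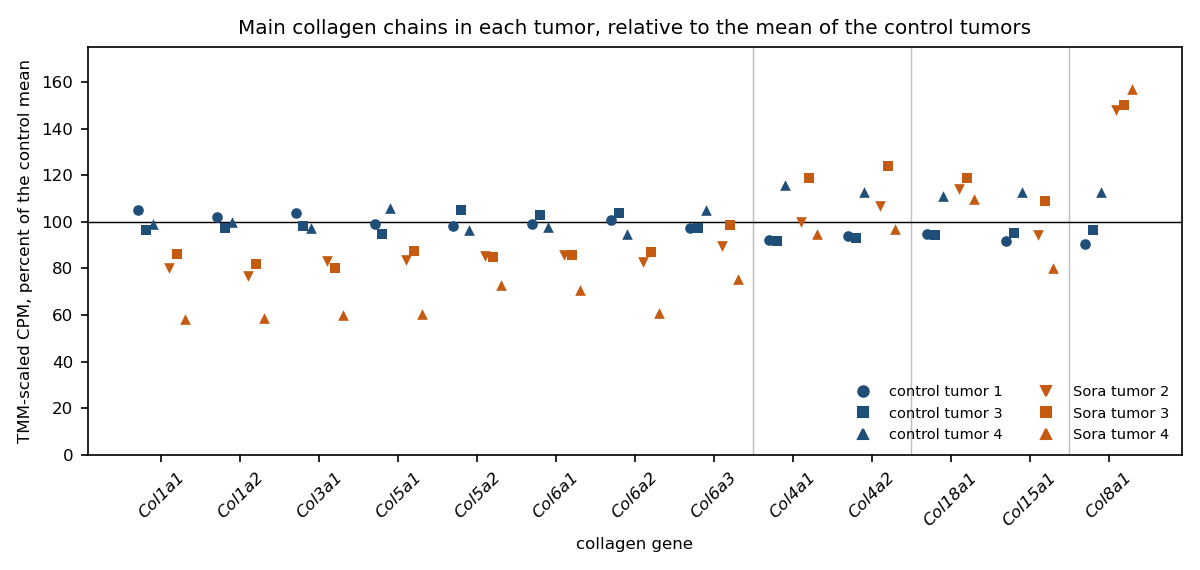
TMM-scaled CPM of 13 collagen genes in each tumor as a percent of the mean of the control tumors (y axis), 1 point per tumor, with vertical lines between types I, III, V, and VI, type IV, the multiplexins, and Col8a1. In Sora tumor 4 Col1a1 was at 58.3%, Col4a1 at 94.9%, and Col8a1 at 157%.

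Type VI collagen, in which 1 chain each of Col6a1, Col6a2, and one of the longer chains form a trimer, links the pericellular matrix to fibrils. Col6a1 was at 148, 146, and 143 FPKM in control and at 125, 125, and 99.3 FPKM in Sora tumors. The control tumors lay within 5 FPKM of each other and above all Sora tumors, with a log2 fold change of -0.31 (SE 0.09, adjusted p = 0.093, edgeR; 0.011, DESeq2). Col6a2, at 67.3, 66.3, and 62.1 FPKM against 54.3, 57.2, and 38.5 FPKM, had a log2 fold change of -0.38 (SE 0.12, adjusted p = 0.12, edgeR; 0.017, DESeq2). Without Sora tumor 4 the values were -0.22 and -0.23, and neither tool called them. Col6a3 overlapped, at 52.6 to 58.5 FPKM in control and 40.5 to 55 FPKM in Sora tumors, a log2 fold change of -0.19 (SE 0.10) that was -0.09 without Sora tumor 4. The rarer long chains Col6a4, Col6a5, and Col6a6 overlapped too. Col6a5 varied most, at 1.42, 1.84, and 0.32 FPKM in the control tumors and 0.834, 0.58, and 0.262 FPKM in the Sora tumors. Control tumor 4 was as low as Sora tumors there, and the log2 fold change of -1.10 had an SE of 0.53.

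Among the FACIT collagens, which decorate the surface of fibrils, 7 of 9 were tested and all 7 had a log2 fold change below 0 in the fit of 6 tumors, with a median of -0.22, but the sign turned in Col16a1 and Col9a3 when a tumor was left out. Col12a1, a FACIT chain of dense connective tissue, was the most abundant, at 19.2 to 27.7 FPKM in control and 16.1 to 21.5 FPKM in Sora tumors. Its groups overlapped, as did those of Col14a1 and Col16a1, and the 3 log2 fold changes were -0.21 (SE 0.13), -0.28 (SE 0.12), and -0.03 (SE 0.08). Without Sora tumor 4 they were -0.10, -0.16, and 0.04, and without control tumor 4 that of Col12a1 was -0.04. Col22a1, known from tissue junctions such as that of muscle and tendon, was at 2.46, 2.77, and 2.64 FPKM in control and 1.99, 2.30, and 1.85 FPKM in Sora tumors. It did not overlap, with a log2 fold change of -0.35 (SE 0.10, adjusted p = 0.10, edgeR). It passed without Sora tumor 3 (adjusted p = 0.041, edgeR), in a fit that called 571 of 16295 genes lower. Col20a1 and Col9a3 overlapped, with log2 fold changes of -0.22 and -0.15. That of Col20a1 was -0.09 without Sora tumor 4, and that of Col9a3 ranged from -0.33 to 0.07 with each tumor left out and was 0.15 with the replicate number as a block.

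Col9a1 was the down-regulated collagen gene in edgeR's test. It was at 0.445, 0.813, and 0.449 FPKM in control tumors and at 0.197, 0.163, and 0.214 FPKM in Sora tumors, from 59, 115, and 69 against 26, 23, and 31 reads. The groups were apart, and control tumor 3 stood above the other controls. The log2 fold change was -1.56 (SE 0.36, adjusted p = 0.042, edgeR; 0.0023, DESeq2). With each tumor left out in turn the adjusted p was 0.06 to 0.14 in edgeR, so the call was lost in all 6 fits. Type IX collagen is best known from cartilage, where it coats type II fibrils. Of its other chains, Col9a2 had at most 1 read in a tumor, and Col9a3 overlapped with a log2 fold change of -0.15 (SE 0.30). Col2a1 had at most 3 reads per tumor. Of the 8 cartilage and bone markers 1 was tested, and their summed level was 0.152 to 0.241 FPKM in control and 0.183 to 0.251 FPKM in Sora tumors, with no gene at more than 0.232 FPKM in any tumor.

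The type IV chains of the basement membrane overlapped between the groups. Col4a1 and Col4a2, which form the type IV trimer of most vessels and epithelia, lie head to head on chromosome 8 with start sites 21 bases apart in RefSeq on GRCm38.p6. Col4a1 was at 79.9, 75.5, and 98.7 FPKM in control and at 84.8, 101, and 77.7 FPKM in Sora tumors. Col4a2 was at 54.1, 51.0, and 64.1 FPKM in control and at 60.7, 70.2, and 53.0 FPKM in Sora tumors. Control tumor 4 and Sora tumor 3 were the high tumors in both genes, and the groups overlapped. The log2 fold changes were 0.06 (SE 0.11, adjusted p = 0.83, edgeR) and 0.13 (SE 0.11, adjusted p = 0.60, edgeR), and that of Col4a1 was -0.04 without Sora tumor 3. Col4a5 and Col4a6, found side by side on the X chromosome, were at 0.0442 to 0.117 FPKM and 0.0367 to 0.0693 FPKM over all tumors, and both overlapped. Col4a3 and Col4a4, the chains of the kidney glomerulus, had at most 7 and 12 reads per tumor and were not tested.

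The multiplexins Col15a1 and Col18a1 sit at the border of basement membrane and stroma, and their ends can be released as fragments with effects on vessels, endostatin from Col18a1 among them. Col18a1 was at 29.9, 28.3, and 34.4 FPKM in control and 35.2, 36.9, and 32.9 FPKM in Sora tumors. Only control tumor 4 reached into the Sora range, and the log2 fold change was 0.19 (SE 0.08, adjusted p = 0.26, edgeR). Col15a1 overlapped, at 31.1 to 38.2 FPKM in control and 26 to 36.9 FPKM in Sora tumors (log2 fold change -0.08, SE 0.12).

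The balance between chains was compared as the ratio of FPKM within each tumor, which needs no scaling between libraries. For each of 8 pairs all 20 labelings of 3 against 3 tumors entered an exact permutation test, two-sided, whose smallest possible p is 0.1. The ratio of Col4a1 to Col1a1 was 0.203, 0.219, and 0.27 in control and 0.288, 0.318, and 0.375 in Sora tumors. The groups did not overlap, with means of 0.231 ± 0.0351 and 0.327 ± 0.0444 (SD, n = 3; exact permutation p = 0.1, 0.4 adjusted over the 8 pairs). With each tumor left out, the log2 difference of 0.50 stayed between 0.40 and 0.62. Col4a1 to Col4a2 was 1.5 ± 0.0355 in control and 1.44 ± 0.0344 in Sora tumors (SD, n = 3; exact permutation p = 0.1, 0.4 adjusted), a small difference without overlap. The other ratios overlapped between the groups, which with 3 tumors each does not show that they were equal. Col1a1 to Col1a2, chains of one trimer, was 1.06 ± 0.019 and 1.09 ± 0.035 (SD, n = 3; exact permutation p = 0.2), and Col3a1 to Col1a1, of different trimers, was 0.96 ± 0.0147 and 0.961 ± 0.0591 (exact permutation p = 1.0). The ratios Col5a1 to Col1a1, Col5a1 to Col5a2, Col6a1 to Col6a2, and Col6a3 to Col6a1 overlapped between the groups (exact permutation p from 0.3 to 0.6).

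**Figure D4:**
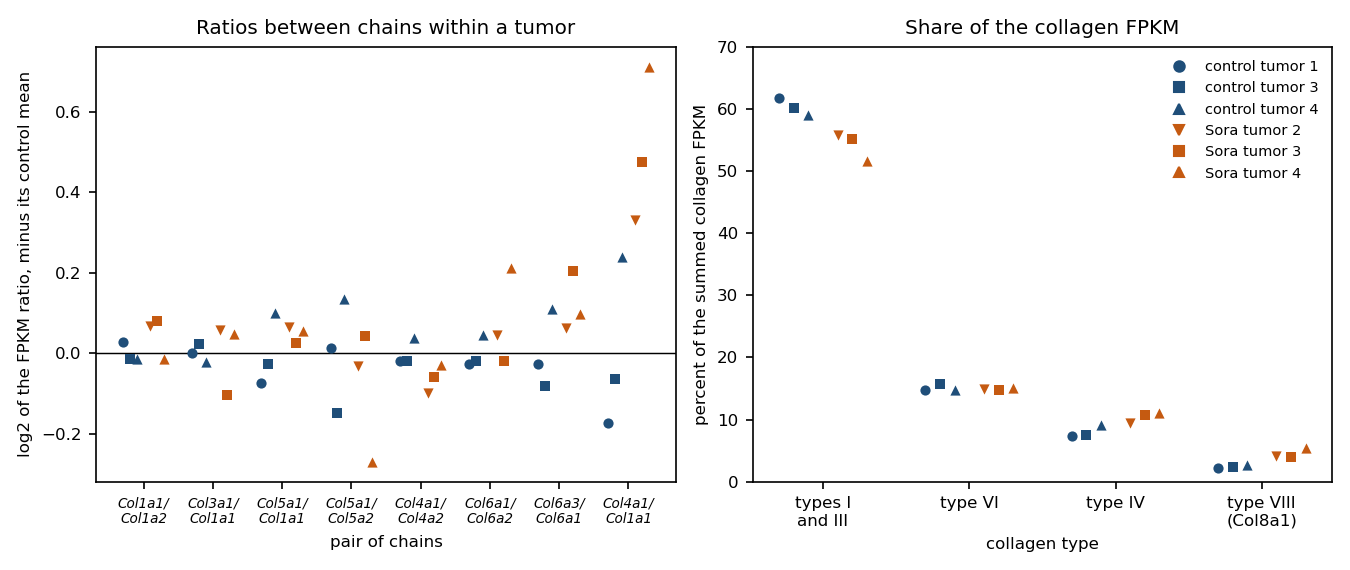
Left, log2 of the FPKM ratio of 8 pairs of chains (x axis) minus its mean over the control tumors (y axis); right, the percent of the summed collagen FPKM (y axis) held by types I and III, VI, IV, and VIII, 1 point per tumor in both. Col4a1 to Col1a1 is highest in Sora tumor 4 at a ratio of 0.375, and types I and III held 59.0% to 61.8% in control and 51.7% to 55.8% in Sora tumors.

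The shares of the chains in the collagen RNA are given without a test, and since each is a part of one sum, a share can move with the level of other chains. Col1a1, Col1a2, and Col3a1 together held 61.8%, 60.1%, and 59.0% of the summed collagen FPKM in control tumors and 55.8%, 55.2%, and 51.7% in Sora tumors. Col4a1 and Col4a2 held 7.32%, 7.54%, and 9.09% in control and 9.51%, 10.7%, and 11.1% in Sora tumors. The share of Col6a1 to Col6a3 was level, at 14.7% to 15.8% in control and 14.8% to 15.1% in Sora tumors. Col8a1 held 2.13% to 2.67% in control and 3.97% to 5.43% in Sora tumors.

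Col8a1 was the up-regulated collagen gene in edgeR's test. It encodes a chain of type VIII collagen, which forms open networks under endothelium and in vessel walls. It was at 39.0, 39.5, and 47.8 FPKM in control and at 62.3, 63.7, and 63.9 FPKM in Sora tumors. The Sora tumors lay within 2 FPKM of each other and above every control tumor, and Sora tumor 4, the low tumor of the fibrillar chains, was the highest. The log2 fold change was 0.60 (SE 0.09, adjusted p = 0.012, edgeR; 2.7e-08, DESeq2). Without Sora tumor 4 it was 0.58 with an adjusted p of 0.07 in edgeR and 4e-05 in DESeq2 on the deposited columns. Its partner Col8a2 was far less abundant, at 0.328, 0.268, and 0.591 FPKM in control and 0.179, 0.228, and 0.0915 FPKM in Sora tumors. Col8a2 did not overlap and lay in the other direction, with a log2 fold change of -1.24 (SE 0.43, adjusted p = 0.15, edgeR). Col10a1, the related chain of growth plate cartilage, had 23 reads in control tumor 4 and 2 to 9 reads in the other tumors, and was not tested.

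Col7a1, whose product forms the anchoring fibrils under skin epithelium, and the transmembrane collagen Col17a1, a part of hemidesmosomes, are collagens of basal epithelial cells. Col17a1 was at 10.5, 2.67, and 3.43 FPKM in control tumors 1, 3, and 4 and at 9.07, 7.05, and 6.53 FPKM in Sora tumors. Control tumor 1 was the highest of all, so the groups overlapped, with a log2 fold change of 0.47 (SE 0.38, adjusted p = 0.59, edgeR). Without control tumor 1 it was 1.30 and passed (adjusted p = 0.022, edgeR). The basal keratins Krt5 and Krt14 went with it. Krt5 was at 112, 31.7, and 38.7 FPKM in control and 108, 70.2, and 71.6 FPKM in Sora tumors, and Krt14 at 253, 57.3, and 55.9 FPKM against 242, 120, and 149 FPKM. Krt15, another keratin among the skin markers, was highest in Sora tumor 3 instead, at 27.7 FPKM, followed by Sora tumor 2 at 20.6 FPKM. Control tumors 3 and 4 were the lowest in Krt15 too, at 7.93 and 7.9 FPKM. The summed level of the 10 skin markers was 133.8 to 487.9 FPKM in control and 297.6 to 441.6 FPKM in Sora tumors, and the part of skin in the values of Col17a1 was not tested. The hair keratins Krt25 and Krt71 were at 3.5 and 4.97 FPKM in control tumor 4 and at most 0.717 FPKM elsewhere, with 0 in control tumor 1 and Sora tumor 4. Col7a1 was at 1.51, 1.06, and 0.848 FPKM in control and 2, 1.45, and 1.53 FPKM in Sora tumors, with control tumor 1 within the Sora range. Its log2 fold change was 0.56 (SE 0.19, adjusted p = 0.16, edgeR; 0.049, DESeq2).

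**Figure D5:**
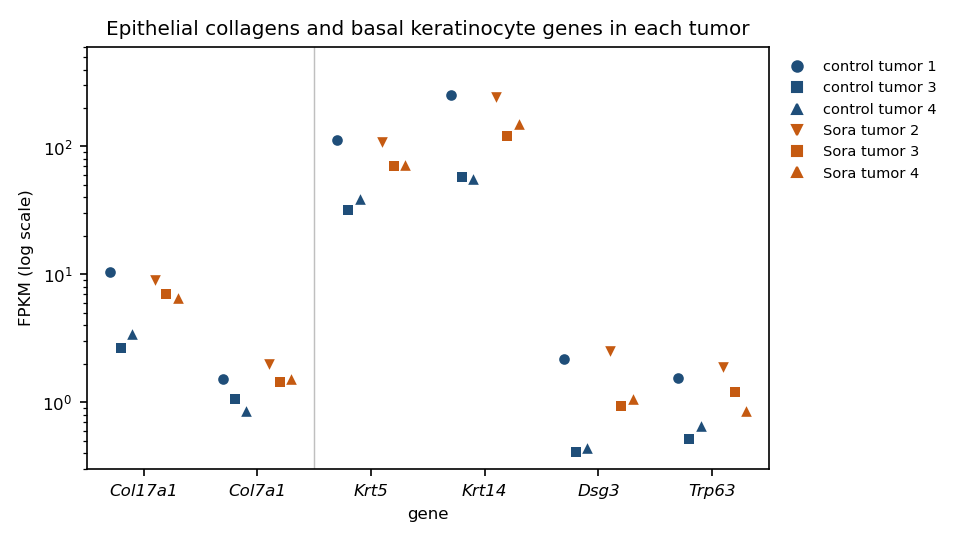
FPKM on a log axis (y) of Col17a1, Col7a1, and 4 genes of basal keratinocytes (x) in each tumor, 1 point per tumor. Control tumor 1 and Sora tumor 2 are the upper points in Col17a1 (10.5 and 9.07 FPKM), Krt5, Krt14, Dsg3, and Trp63.

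Of the other transmembrane collagens, Col23a1 overlapped at 1.06 to 1.71 FPKM over the 6 tumors (log2 fold change 0.27, SE 0.18). Col13a1, a chain of cell adhesion sites, was at 0.0844, 0.0279, and 0.0472 FPKM in control and 0.21, 0.14, and 0.109 FPKM in Sora tumors. The groups did not overlap, but the reads were few, 17, 6, and 11 against 42, 30, and 24, and the log2 fold change of 1.54 (SE 0.48) had an adjusted p of 0.11 in edgeR. Control tumor 3 was under the minimum of 10 counts. Col28a1, a collagen known from peripheral nerve, overlapped at 1.25 to 1.85 FPKM (log2 fold change -0.13, SE 0.15).

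The 9 collagen genes that could not be tested were Col2a1, Col11a1, Col4a3, Col4a4, Col9a2, Col19a1, Col10a1, Col25a1, and Col26a1. Each had from 0 to 23 reads in a tumor, and a count of 0 still allows up to 3 reads. Col25a1 had 1 read in each control tumor and 0 in each Sora tumor. Col11a1 had 4, 4, and 8 reads in control and 2, 3, and 0 in Sora tumors, without overlap. When the filter was dropped, the 9 genes had unadjusted p from 0.12 to 0.90 in edgeR and from 0.23 to 0.93 in DESeq2, which gave none of them an adjusted p, so the depth sets no narrow limit on their differences.

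Sora tumor 4 held the lowest value of 21 of the 35 tested collagen genes (60.0%), against 19.3% of all genes tested. It was also the lowest tumor in 8 of 9 endothelial markers (88.9%), 5 of 8 leukocyte markers (62.5%), 6 of 10 fibroblast markers (60.0%), and 4 of 6 crosslinking genes (66.7%). It was the lowest in 3 of 9 pericyte and smooth muscle markers (33.3%), and in 0 of 8 skin, 0 of 8 skeletal muscle, 0 of 6 adipocyte, and 0 of 8 hepatoma markers that were tested. Of the other collagen pathway genes, it was the lowest in 10 of 20 that fold and modify collagen, 3 of 6 that trim it, 3 of 9 receptors, and 4 of 15 basement membrane partners. In the 8 chains of types I, III, V (Col5a1 and Col5a2), and VI (Col6a1 to Col6a3) it was the lowest in all 8, and the summed FPKM of these chains was 1367 to 1497 in control tumors, 1164 and 1205 in Sora tumors 2 and 3, and 849.7 in Sora tumor 4. In none of the 4 basement membrane genes, the 3 transmembrane genes, or Col7a1 was it the lowest. Collagen genes are long, with a median of 6450 bases over the 35 tested against 3491 bases over all genes tested. Among genes of 5000 bases or more the median log2 difference of Sora tumor 4 from the control mean was -0.024, and among genes under 2000 bases it was 0.083. With an offset for gene length the median log2 fold change of the fibrillar chains was -0.35, and without it -0.37. RNA quality was not analysed here, and the part of gene length and of RNA quality in the values of Sora tumor 4 was not tested.

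Markers of fibroblasts, the main makers of fibrillar collagen, were mixed. Their summed level, mostly that of Dcn, was 954.9 to 1036 FPKM in control and 961.9 to 1003 FPKM in Sora tumors, with Sora tumor 4 at 963.3. Decorin (Dcn), a proteoglycan that binds collagen fibrils and the most abundant of these markers, was at 732, 755, and 813 FPKM in control and at 754, 783, and 786 FPKM in Sora tumors. Pdgfra, a receptor of fibroblasts, had a log2 fold change of -0.03 (SE 0.12) and Thy1 of -0.14 (SE 0.08). Of the 10 markers, 8 had a log2 fold change below 0, with a median of -0.09, and 6 were lowest in Sora tumor 4, among them Lum (9.56 FPKM there and 13.2 to 19 FPKM in the other tumors) and Thy1 (96.9 FPKM there and 108 to 126 FPKM in the others). Only 1 of them passed the test, the microfibril gene Mfap5 (log2 fold change -0.48, adjusted p = 0.023, edgeR). The median was 0.06 over 9 pericyte and smooth muscle markers and -0.19 over 9 endothelial markers. edgeR called none of either list. At an unadjusted p under 0.05 were 1 pericyte marker, higher, and 2 endothelial markers, lower, and DESeq2 called 1 pericyte marker higher and no endothelial marker. Rgs5, a pericyte gene, was highest in control tumor 4 and Sora tumor 3 (58.7 and 50.2 FPKM), the high tumors of Col4a1. Of the other markers of this list, Pdgfrb, Notch3, Abcc9, and Acta2 were also highest in these tumors. Cspg4, Kcnj8, Myh11, and Tagln were not. Leukocyte markers were at a summed 396.4 to 448.4 FPKM in control and 338.3 to 384.7 FPKM in Sora tumors, with a median of -0.31 and none of 8 called by edgeR (1 higher and 4 lower at an unadjusted p under 0.05; none higher and 3 lower by DESeq2). The 7 adipocyte markers were at 68.3 to 100.7 FPKM in control and 82.2 to 128.8 FPKM in Sora tumors, and the 8 skeletal muscle markers at 101.9 to 136.6 FPKM and 112.7 to 159.6 FPKM. The adipocyte sum was mostly Fabp4. All tested markers of adipocytes (6), skeletal muscle (8), and skin (8) had a log2 fold change above 0, with medians of 0.65, 0.19, and 0.49. edgeR called none of these (3, 1, and 1 higher at an unadjusted p under 0.05; 1, 0, and 0 higher by DESeq2). The 8 hepatoma markers were at a summed 2598 to 3202 FPKM in control and 2608 to 2837 FPKM in Sora tumors, with 2 called higher (Hnf4a and Apoa1) and 2 lower (Alb and Ttr) by edgeR (4 higher and 2 lower at an unadjusted p under 0.05; 1 higher and 2 lower by DESeq2). Apoa1 was not called by DESeq2 (adjusted p = 0.063). Whether any of these cell types had a part in the collagen values was not tested.

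The genes that fold and modify collagen went both ways. Of 20 genes, all tested, 1 was called higher and none lower by edgeR (2 and 1 at an unadjusted p under 0.05; 2 and 1 by DESeq2), with a median log2 fold change of -0.07. Of all genes edgeR called 1.94% higher and 1.34% lower, and DESeq2 4.0% and 3.72%. The groups did not overlap in 4 that were higher and in 3 that were lower, against 10.6% and 11.6% of all genes. P4ha2, a prolyl 4-hydroxylase subunit whose product stabilizes the triple helix, rose from 36.4, 40.7, and 35.9 FPKM in control to 51.8, 52.3, and 50 FPKM in Sora tumors (log2 fold change 0.46, SE 0.08, adjusted p = 0.019, edgeR). Its paralog P4ha1 was at 65.4 to 68.2 FPKM and 72.3 to 75.4 FPKM, without overlap, and was not called (log2 fold change 0.16, SE 0.07). Serpinh1, the collagen chaperone HSP47, was at 122 to 137 FPKM in control, 122 and 129 FPKM in Sora tumors 2 and 3, and 87.3 FPKM in Sora tumor 4 (log2 fold change -0.18, SE 0.12). Plod2, a lysyl hydroxylase, had the same shape, with 1.51 FPKM in Sora tumor 4 and 2.61 to 3.05 FPKM in the others (log2 fold change -0.30, SE 0.18). The genes that DESeq2 called besides P4ha2 were named after their values were seen. Colgalt2, a collagen galactosyltransferase, was at 0.583, 1.12, and 0.735 FPKM in control and 0.397, 0.393, and 0.296 FPKM in Sora tumors (log2 fold change -1.17, SE 0.31, adjusted p = 0.068, edgeR; 0.0095, DESeq2), the largest difference of the list. Plod3, a lysyl hydroxylase, was at 53.3 to 58.4 FPKM in control and 63.1 to 68.3 FPKM in Sora tumors (log2 fold change 0.27, SE 0.08, adjusted p = 0.10, edgeR; 0.031, DESeq2).

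Of 8 genes that trim procollagen, 6 were tested and none was called by edgeR (1 higher and 1 lower at an unadjusted p under 0.05; none by DESeq2). Bmp1, the procollagen C-proteinase, was level (log2 fold change -0.01, SE 0.07). Its enhancer Pcolce was at 232 to 242 FPKM in control and 204 to 218 FPKM in Sora tumors, without overlap (log2 fold change -0.17, SE 0.07, adjusted p = 0.22, edgeR). None of the 6 crosslinking genes was called by edgeR either (1 higher and 1 lower at an unadjusted p under 0.05; none by DESeq2), and the lysyl oxidases Lox and Loxl2 overlapped with log2 fold changes of -0.24 (SE 0.14) and -0.22 (SE 0.12). Loxl4, named after its values were seen, lay the other way, at 15.6, 16.9, and 15.7 FPKM in control and 18.2, 19.5, and 18.6 FPKM in Sora tumors, without overlap and without a call (log2 fold change 0.23, SE 0.08, adjusted p = 0.14, edgeR; 0.096, DESeq2).

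Among 9 collagen receptors, 1 rose and 1 fell by edgeR, against 1.94% and 1.34% of all genes, and DESeq2 called the same 2 genes, against 4.0% and 3.72%. Itga2, the integrin chain that binds type I collagen on epithelial cells and platelets, was at 18.4, 15.9, and 23.5 FPKM in control and 33.2, 26.2, and 33.7 FPKM in Sora tumors (log2 fold change 0.70, SE 0.14, adjusted p = 0.026, edgeR). Lair1, an inhibitory collagen receptor of leukocytes, was at 8.98, 8.38, and 8.85 FPKM in control and 5.02, 6.71, and 5.59 FPKM in Sora tumors (log2 fold change -0.59, SE 0.10, adjusted p = 0.019, edgeR). The discoidin domain receptors Ddr1 and Ddr2 overlapped, with log2 fold changes of 0.05 and 0.10.

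Of 15 laminin, nidogen, perlecan, and agrin genes that accompany type IV collagen, 1 rose and none was called lower by edgeR (2 higher and 1 lower at an unadjusted p under 0.05; 2 higher and none lower by DESeq2), with a median log2 fold change of 0.05. Of all genes edgeR called 1.94% higher and 1.34% lower, and DESeq2 4.0% and 3.72%. Lamb1, a laminin beta chain, was at 22.7, 25.1, and 27.3 FPKM in control and 37.3, 32.6, and 33.5 FPKM in Sora tumors (log2 fold change 0.47, SE 0.09, adjusted p = 0.023, edgeR). Lamb3, another laminin beta chain, was at 37.6, 43.5, and 37.2 FPKM in control and 47.6, 50.3, and 49.2 FPKM in Sora tumors, without overlap (log2 fold change 0.32, SE 0.09, adjusted p = 0.074, edgeR; 0.011, DESeq2), and was named after its values were seen. Perlecan (Hspg2) was level, with a log2 fold change of 0.00 (SE 0.08). Of TGF-beta, the pathway best known for driving fibrillar collagen genes, the classical target Ccn2 rose. It was at 77.7, 106, and 99.6 FPKM in control and 151, 187, and 165 FPKM in Sora tumors (log2 fold change 0.83, SE 0.13, adjusted p = 0.013, edgeR). Tgfb1 itself was at 82.0 to 89.2 FPKM and 93.0 to 106 FPKM, without overlap and without a call (log2 fold change 0.24, SE 0.08, adjusted p = 0.14, edgeR), and the target Tgfbi overlapped (log2 fold change -0.04). The other ligands, named after their values were seen, were Tgfb2 and Tgfb3. Tgfb2 was at 0.495, 0.443, and 0.483 FPKM in control and 0.257, 0.356, and 0.237 FPKM in Sora tumors, lower without overlap and without a call (log2 fold change -0.73, SE 0.23, adjusted p = 0.12, edgeR; 0.057, DESeq2). Tgfb3 overlapped (log2 fold change -0.12, SE 0.17). Col1a1 and Col1a2, which are also counted among TGF-beta targets, had the log2 fold changes below 0 given above. Without Sora tumor 4, none of P4ha2, Itga2, Lair1, Lamb1, and Ccn2 was called by edgeR (adjusted p from 0.07 for Ccn2 to 0.13 for Itga2). That fit called 4 higher and 1 lower of 16319 genes in all, and the log2 fold changes of the 5 genes were 0.46, 0.62, -0.58, 0.47, and 0.83 in it. DESeq2 on the 5 deposited columns called all 5 of them.

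The genes outside the collagens whose levels were most like the mean of Col1a1, Col1a2, and Col3a1 over the 6 tumors were Gdpd5, Sla, Nek1, Prr14l, Fndc1, Scamp5, Adcy7, Slc38a9, Trerf1, and Nfix. Their Pearson correlations of log2(CPM + 1) were 0.982 to 0.995, the highest of 10062 genes with a mean of at least 10 CPM. With 6 tumors that fall into 2 groups such values are a description only. All 10 were lowest in Sora tumor 4 and did not overlap between the groups. Col1a1, Col1a2, and Col3a1 have both traits, so in genes chosen to resemble them these follow largely from the choice. The 10 genes were long, with a median of 7435.5 bases. No fibroblast marker was among them. Fndc1 had the largest difference of the 10, from 4.31, 4, and 3.88 FPKM to 2.78, 3.31, and 1.78 FPKM (log2 fold change -0.62, SE 0.17, adjusted p = 0.074, edgeR).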

How the data were processed

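RNA-seq of 3 control and 3 Sora-treated Hepa1-6 tumors was used, one library per tumor. The authors deposited counts, whole numbers of reads per gene, and FPKM, those counts divided by gene length and library total. The methods of the study name GRCm38, Bowtie2, and an expectation maximization algorithm. The submitters' processing notes name GRCm39, fastp, HISAT2, HTSeq, and R 3.2.0 instead, and both name DESeq2. The annotation and strand setting are not given in the sources used here, so overlapping genes (Col4a1 with Col4a2, Col4a3 with Col4a4) are uncertain. The count columns used here cover 5 tumors. Counts of Sora tumor 4 were computed from FPKM and gene length. Each of its values (100%) lay within 0.001 of an integer, and 342 genes without a known length (512 reads, 0.0015%) were left at 0. The same calculation returned every count of the other 5 tumors.

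Genes reaching 10 counts in 3 or more tumors were tested with edgeR 4.0.16 (TMM scaling, glmQLFit, glmQLFTest, no covariate) in R 4.3.3, with Benjamini-Hochberg adjustment over all 16513 genes and a threshold of 0.05. The standard error is the log2 fold change divided by the square root of F. The biological coefficient of variation was 0.132. Total counts were 31073830 to 36205814, so counting error mattered mainly for genes with few reads. The scripts were tested on simulated data. Alternatives were DESeq2 1.42.0, limma 3.58.1 (voom, and log2 FPKM with a pseudocount of 1 or 0.1), other scalings and filters, offsets for length and GC content (known for 91.6% of genes), and leaving out each tumor. The members and lists were chosen with earlier results of these data known. Named were collagen genes that were called or did not overlap, the 3 most abundant of each class, the main chains, called genes of the collagen pathway lists with 12 others set by name, and the 10 genes most like types I and III. One gene of the pathway lists is not reported here.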

Additional observations from a re-analysis of the deposited data

How the results depend on the processing

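With 1 collagen gene called higher and 1 lower in edgeR, the counts moved as follows. Called higher were 2 with DESeq2, 2 without the filter, and 0 on log2(FPKM + 1) of all genes, and 0 to 2 with each tumor left out. Called lower were 8 with DESeq2, 8 without the filter, 4 with DESeq2 on the 5 deposited count columns (an alternative chosen after seeing the data), 2 with the gene length offset, and 0 with limma voom, log2(FPKM + 1), log2(FPKM + 0.1), or log2(FPKM + 1) of all genes, and 0 to 3 with each tumor left out. The 3 were without Sora tumor 3, a fit that called 574 higher and 571 lower of 16295 genes. Of the 62 tested collagen pathway genes, 5 were called higher and 1 lower, against 1.94% and 1.34% of all genes. On log2(FPKM + 1) of all genes 0 and 0 were, DESeq2 and the fit without the filter called 2 lower, and with each tumor left out 0 to 7 were called higher and 0 to 1 lower. With the replicate number as a block (replicate block), 1 collagen gene was called higher (Col17a1) and 0 lower, and 3 pathway genes higher and 0 lower. The labels do not say that the numbers pair the tumors. The deviations of tumors with the same number correlated at -0.033 and -0.074, and those of tumors with different numbers at -0.157 to 0.259. So few pairs cannot settle whether the numbers carry a pairing.

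Log2 fold changes turned in genes near 0. With DESeq2 on the 5 deposited columns Col15a1 was at 0.023, Col16a1 at 0.04, Col4a5 at -0.333, and Bmp1 at 0.03. Col4a5 was at -0.002 with limma voom and -0.001 on log2(FPKM + 1) of all genes. Hspg2 was at -0.005 with total counts, -0.001 without the filter, -0.008 on each FPKM scale, -0.024 with the block, and -0.05 with the GC offset. With each tumor left out, Col15a1 ranged from -0.20 to 0.026, Col16a1 from -0.08 to 0.043, Col28a1 from -0.21 to 0.002, Col4a1 from -0.04 to 0.184, Col4a5 from -0.322 to 0.375, Bmp1 from -0.053 to 0.033, Ddr1 from -0.052 to 0.136, and Hspg2 from -0.056 to 0.063. Col9a3 ranged from -0.33 to 0.07, and was 0.15 with the block. The log2 difference of the ratio Col3a1/Col1a1 ranged from -0.028 to 0.053 and that of Col5a1/Col5a2 from -0.16 to 0.007. The cause of these changes was not tested. Counts under 100 in every tumor limit Col9a3, Col8a2, Col6a4, Col13a1, Col4a5, Col4a6, and Col6a6, and Col9a1 had 23 to 115 reads.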
